A study of Mus musculus with 18 samples.

Results

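Circadian clock genes and their direct output genes were read in RNA from the brains of mice dosed with glyphosate, as a check on the time at which tissue was taken. The set was fixed by symbol, and held 10 of the 27179 genes in the count table: Arntl (also called Bmal1), Npas2, Per1, Per2, Per3, Nr1d1, Nr1d2, Dbp, Tef and Hlf. All 10 were found, and all 10 passed the filter on low counts that left 15863 genes for testing. Wild-type C57BL/6J mice received vehicle or glyphosate at 125, 250 or 500 mg/kg of body weight each day by oral gavage, for 14 days from 4 months of age. RNA came from a hemisphere of each of 18 brains, perfused about 4 h after the last gavage. There were 5 vehicle mice, of which 2 were male, 5 mice at 125 mg/kg with 3 males among them, 4 at 250 mg/kg with a single female, and 4 at 500 mg/kg split evenly by sex. All mice were gavaged, perfused and unmodified, and the dose and the sex differed by design. By the study's methods, cages were shared only by mice of the same sex and dose. Cage therefore cannot be told apart from dose and sex, and the labels do not give it. The hour of day at which each mouse was taken is not given in the sources used here, so a clock time cannot be set beside any value.

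The clock is a feedback loop of transcription factors that runs in most cells. BMAL1, encoded by Arntl, pairs with CLOCK or with NPAS2 at E-box elements and switches on the Per, Cry and Nr1d genes and Dbp. The PER proteins then shut that pair off, while REV-ERBα and REV-ERBβ, encoded by Nr1d1 and Nr1d2, repress Arntl and Npas2 through RRE elements, and DBP, TEF and HLF carry the rhythm to other genes through D-boxes. Where the loop runs, Nr1d1, Nr1d2 and Dbp are high in the part of the day when Arntl and Npas2 are low, so tissue taken at another hour would differ in both arms of the loop. Per1 also answers to glucocorticoid hormones and to neuronal firing, independently of the loop.

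The elements named above, with a variant of the E-box and the element through which cyclic AMP acts, were looked for in RefSeq promoter windows (GRCm38.p6, 250 bases before to 50 bases after an annotated start), which were matched for 9 of the 10 genes, with 12 windows between them. The letters searched on both strands were CACGTG for the E-box, CACGTT for the E′-box variant, AGGTCA for the core of the RRE, TTATGTAA for the D-box and TGACGTCA for the cyclic AMP response element (CRE). The sequences below are shown because they place such elements near the starts of the clock genes themselves. Each runs 5′ to 3′ on the strand of its gene, with 12 bases on either side of the match and the match in capitals. Per1 has 2 annotated starts. Both of its matches belong to the start that lies inside the gene span (chr11:69095108-69109965), not to the one at its 5′ end.
Per1 E-box, 166 bases before the start, chr11:69098771-69098800, plus strand: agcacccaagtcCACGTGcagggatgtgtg
Per1 RRE, 137 bases before, chr11:69098800-69098829, plus strand: gtgacacagcccTGACCTcagtgggggcca
Tef E-box, first start, 127 bases before, chr15:81802534-81802563, plus strand: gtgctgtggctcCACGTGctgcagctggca
Tef E-box, second start, 138 bases before, chr15:81811264-81811293, plus strand: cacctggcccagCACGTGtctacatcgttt
Nr1d1 E′-box, 28 bases before, chr11:98775388-98775417, minus strand: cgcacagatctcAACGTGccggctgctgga
Nr1d2 RRE, 77 bases before, chr14:18239166-18239195, minus strand: gattggaagaagAGGTCAggaccgctcgtt
Arntl RRE, second start, 32 bases after, chr7:113207530-113207559, plus strand: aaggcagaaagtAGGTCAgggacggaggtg
Per3 D-box, 205 bases before, chr4:151044851-151044882, minus strand: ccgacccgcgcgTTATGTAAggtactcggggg
Per3 D-box, 158 bases before, chr4:151044804-151044835, minus strand: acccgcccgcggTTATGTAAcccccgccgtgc
Hlf CRE, 9 bases before, chr11:90390907-90390938, minus strand: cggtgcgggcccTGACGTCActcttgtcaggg
Over all 32851 mouse windows of the same length, the E-box letters were held by 7.15%, the E′-box letters by 4.68%, the RRE letters by 16.3%, the D-box letters by 0.938% and the CRE letters by 1.79%. No letters searched were found in the windows of Dbp and Npas2, which says nothing of elements outside them. A match is a run of letters and was not tested as a binding site.

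Library depth ran between 3948096 and 11732885 counts, with a median of 7789800. The tissue label held: the 5 general neuron markers summed to between 2628 and 5111 counts per 1e6 (CPM) in every mouse, and 5 markers of other organs to between 1.93 and 10.5 CPM. The libraries of mouse G4 (a 500 mg/kg female) and mouse G9 (a vehicle female) stood apart: their median correlation with other libraries was 0.932 and 0.933, where the rest had 0.948 to 0.968. In these 2 hemispheres the 8 forebrain excitatory neuron markers (among them Slc17a7, Neurod6, Tbr1 and Camk2a) summed to 370.5 CPM (G4) and 455 CPM (G9), and in the other 16 mice to between 1660.1 and 5396 CPM. By group, that sum ran between 455 and 4564 CPM for vehicle, 1951 and 5396 CPM for 125 mg/kg, 1660.1 and 3996 CPM for 250 mg/kg and 370.5 and 2470.3 CPM for 500 mg/kg. All 8 markers had a negative slope on dose (median -1.38 on the log2 scale per 500 mg/kg), and 0 of 8 passed the test. The midbrain, hypothalamic and oligodendrocyte lists had positive median slopes. All 8 cerebellar neuron markers (median slope -0.61) and all 7 choroid plexus markers (median -0.83) had negative slopes, and 0 passed in either list. The cerebellar sum ran between 208 and 3636 CPM over the 18 mice, and the choroid plexus sum between 18.4 and 1268 CPM. The thalamic neuron sum was 1745.5 CPM in the 125 mg/kg mouse G45 and at most 461 CPM in the other mice. Of 6 midbrain dopamine neuron markers tested 3 rose (Slc6a3, Ddc and Chrna6), with a median slope of 2.29, and 39 of all 15863 genes rose. Of 11 hypothalamic neuron markers tested 7 had p under 0.05 before adjustment, as did 7 of 8 oligodendrocyte markers, each of these with a positive slope, and 0 passed in either list. Over all genes, 1254 of 15863 had an unadjusted p under 0.05 with a positive slope. G4 had the highest sums of all mice for the midbrain list (341 CPM) and the oligodendrocyte list (15509 CPM). The part of these lists in the clock gene levels was not tested. In bulk tissue, fewer cells of a type and less RNA per cell cannot be told apart. All columns of the table carried the same flow cell and lane. The numbers in the mouse names run in dose order apart from that of G4, and what they stand for is not given in the sources used here, so any order of handling they record cannot be told apart from dose. Levels below are given as CPM scaled by the trimmed mean of M-values, and several results that rest on G4 and G9 are also given without them.

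Per kilobase of exon, Nr1d1 was the highest of the set at 61.0 ± 12.9 CPM per kb (SD, n = 18) and Arntl the lowest at 1.57 ± 0.436. Tef averaged 57.3 ± 8.61, Nr1d2 39.8 ± 4.60, Hlf 39.4 ± 12.3, Per1 22.9 ± 4.75, Dbp 16.0 ± 4.17, Per2 7.26 ± 1.79, Per3 5.85 ± 1.44 and Npas2 4.41 ± 2.17 CPM per kb (SD, n = 18 each). Of neighbours in that order, only Dbp and Per2 had ranges that did not overlap. Nr1d2 stood above Hlf in 9 of 18 mice and Nr1d1 above Tef in 11 of 18, so those neighbours had no order across mice, while the other 7 pairs of neighbours kept theirs in 16 to 18 mice. The REV-ERB and PAR bZIP genes thus gave 216 or more counts in every library, and the precision of Arntl and Npas2 was the lowest, with as few as 32 and 29 counts.

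**Figure D1:**
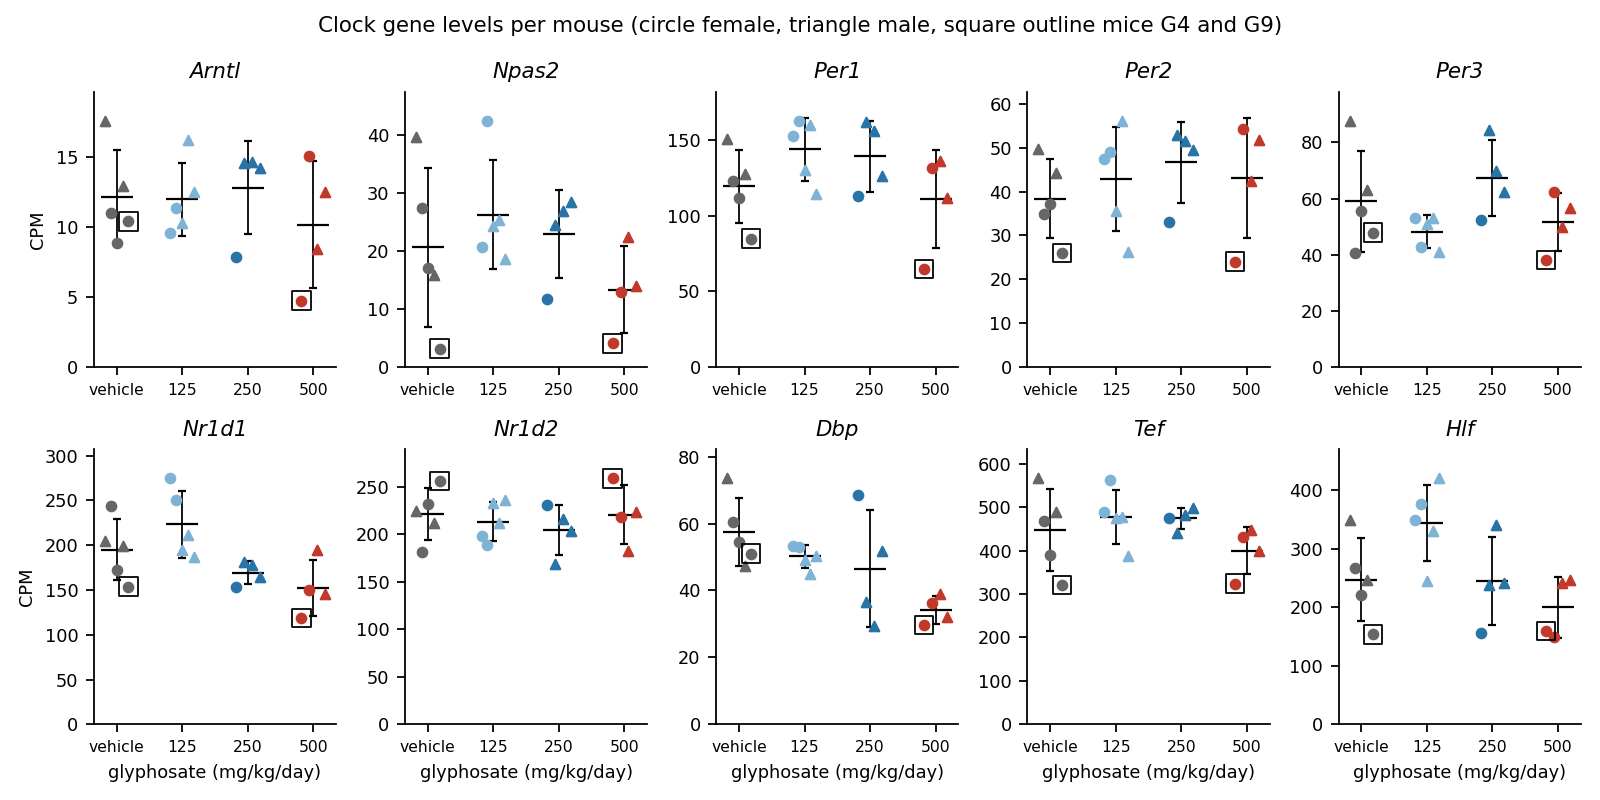
Level of each of the 10 clock genes in each of the 18 mice (vertical axes, CPM on a linear scale from 0) by glyphosate dose (horizontal axes, mg/kg/day). Circles are females, triangles males, square outlines the mice G4 and G9, and bars the group mean with SD; for Dbp, the 4 mice at 500 mg/kg lie between 29.7 and 38.9 CPM, below all 5 vehicle mice.

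By edgeR's quasi-likelihood test with Benjamini-Hochberg adjustment over all genes, 0 of the 10 clock genes passed for the slope on dose, where 0.290% of all genes tested did. Before adjustment, 3 of 10 had p under 0.05 (Dbp, Nr1d1 and Hlf), all with lower levels at higher dose, against 13.2% of all genes and 5.28% in that direction. The slope was negative for 9 of the 10, with a median of -0.22 on the log2 scale per 500 mg/kg, and the median over all genes was 0.01. DESeq2 called 1 of the 10, Dbp, among the 226 genes it called in all. p-values here measure the spread between mice, which were taken as independent although mice of the same dose and sex shared cages.

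Dbp, which encodes a D-box activator and is among the most rhythmic outputs of BMAL1, showed the clearest difference. Its level was 51.0, 60.6, 54.5, 73.5 and 47.4 CPM in the vehicle mice G9, G15, G18, G1 and G5, and 53.4, 53.0, 49, 45.0 and 50.4 CPM in the 125 mg/kg mice G25, G29, G34, G40 and G45. At 250 mg/kg it was 68.6 CPM in the female G49 and 36.7, 29.3 and 51.8 CPM in the males G64, G66 and G71. At 500 mg/kg it was 29.7, 36.2, 38.9 and 32.1 CPM in G4, G79, G87 and G90. The lowest and the intermediate doses overlapped with vehicle, while all mice given 500 mg/kg had less Dbp than any vehicle mouse and than any mouse at 125 mg/kg. This was the only member whose 500 mg/kg and vehicle mice did not overlap, and 3.25% of all genes had no overlap between these groups (0.933% with all 500 mg/kg mice lower).

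The 500 mg/kg mice averaged 34.2 ± 4.12 CPM of Dbp (SD, n = 4) and the vehicle mice 57.4 ± 10.2 CPM (SD, n = 5), a difference of -0.73 on the log2 scale (SE 0.19, edgeR adjusted p = 0.169, unadjusted p = 0.00135). The slope on dose was -0.72 per 500 mg/kg (SE 0.18, edgeR adjusted p = 0.0877). Neither passed the threshold of 0.05. DESeq2, with its own filter, dispersion estimates and tests, gave a slope of -0.73 (adjusted p = 0.0183) and a 500 mg/kg difference of -0.74 (adjusted p = 0.0350), both past it. Leaving out the 250 mg/kg mouse G49 brought the edgeR slope past the threshold (-0.76, adjusted p = 0.0405), and leaving out G4 gave the weakest evidence (adjusted p = 0.424). Within males alone the slope was -0.76 (edgeR adjusted p = 0.474) and within females alone -0.70 (edgeR adjusted p = 0.882), neither of which passed, and the difference between the slopes of males and females was -0.07 (SE 0.36, edgeR adjusted p = 0.9999). The Dbp locus (chr7:45705100-45710203, GRCm38, plus strand) shares 539 exon bases with Sphk2 on the opposite strand, and the strand setting of the counting is not given in the sources used here. Sphk2 had a slope of 0.14 (edgeR adjusted p = 0.595), opposite in sign to that of Dbp.

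The other PAR bZIP genes, Tef and Hlf, gave smaller or less regular differences. Hlf had 154, 267, 221, 350.3 and 246 CPM in vehicle mice (in the order given for Dbp), and 349, 377, 244, 331 and 421 CPM in 125 mg/kg mice. It had 157, 238, 342 and 243 CPM in 250 mg/kg mice and 159.6, 149.8, 243 and 248 CPM in 500 mg/kg mice. The levels were highest at the lowest dose, with overlap between every pair of a dose and vehicle, and the lowest values at each of the vehicle, 250 and 500 mg/kg levels belonged to females. The test of any difference between doses gave an unadjusted p of 0.00767 for Hlf (edgeR adjusted p = 0.208), and DESeq2 called it (adjusted p = 0.0457, among 530 genes called). Against vehicle, Hlf differed by 0.44 at 125 mg/kg (SE 0.20, edgeR adjusted p = 0.428), by -0.16 at 250 mg/kg (edgeR adjusted p = 0.9999) and by -0.36 at 500 mg/kg (edgeR adjusted p = 0.535). Its slope was -0.55 (SE 0.25, edgeR adjusted p = 0.359). Tef averaged 446 ± 94.3 CPM with vehicle, 478 ± 62.3 CPM at 125 mg/kg, 474 ± 24.7 CPM at 250 mg/kg and 400.0 ± 54.3 CPM at 500 mg/kg (SD, n = 5, 5, 4 and 4). Its slope was -0.18 (SE 0.15, edgeR adjusted p = 0.632). It was -0.089 without G4, and it became positive without the 500 mg/kg group or with the forebrain marker level as a covariate.

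Nr1d1 and Nr1d2, the REV-ERB repressors, are normally in step with each other. Nr1d1 had 154, 243, 173, 205 and 199 CPM in vehicle mice and 274, 250.0, 194, 211 and 187 CPM in 125 mg/kg mice. It had 153, 182, 178 and 165 CPM in 250 mg/kg mice and 119, 150.0, 195 and 145 CPM in 500 mg/kg mice. Every dose overlapped with vehicle. The slope of Nr1d1 was -0.46 (SE 0.17, edgeR adjusted p = 0.264), with a 500 mg/kg difference of -0.36 (SE 0.16, edgeR adjusted p = 0.409). Its locus shares 263 exon bases with Thra, a thyroid hormone receptor gene on the opposite strand, and Thra had a slope of -0.47 (edgeR adjusted p = 0.279), close to that of Nr1d1. Nr1d2 was the steadiest of the set, at 256, 181, 232, 224 and 212 CPM in vehicle mice and 198, 188, 232, 211 and 236 CPM in 125 mg/kg mice. It had 230.4, 169, 216 and 204 CPM in 250 mg/kg mice and 259, 218, 182 and 223 CPM in 500 mg/kg mice. The slope of Nr1d2 was -0.0025 (SE 0.12, edgeR adjusted p = 0.996), and its highest values of all were in G4 and G9, the mice in which Nr1d1 was lowest within their groups.

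The Per repressors had slopes of either sign, each smaller than its standard error. Per1 averaged 119.6 ± 24.0 CPM with vehicle, 144 ± 20.8 CPM at 125 mg/kg, 139 ± 23.6 CPM at 250 mg/kg and 111 ± 32.6 CPM at 500 mg/kg (SD, n as for Tef). Its slope was -0.19 (SE 0.20, edgeR adjusted p = 0.734), and it was 0.02 without G4. Per2 averaged 38.4 ± 9.04 CPM with vehicle, 42.8 ± 11.9 CPM at 125 mg/kg, 46.7 ± 9.19 CPM at 250 mg/kg and 43.1 ± 13.7 CPM at 500 mg/kg (SD, n as for Tef), with a slope of 0.14 (SE 0.23, edgeR adjusted p = 0.838). Per3 ran between 40.7 and 87.5 CPM with vehicle and between 38.2 and 62.2 CPM at 500 mg/kg, with a slope of -0.08 (SE 0.19, edgeR adjusted p = 0.897). Per1, which glucocorticoids and neuronal firing induce, was set beside lists of genes that answer to the same signals. Of 17 glucocorticoid-induced genes 5 rose with dose (Arrdc2, Errfi1, Klf15, Nfkbia and Sgk1) and 0 fell, and of 10 activity-induced genes 3 fell (Btg2, Dusp1 and Ier2) and 0 rose, while Per1 passed neither way. Over all 15863 genes, 39 rose and 7 fell. The movement of both lists was known from earlier results of these data, and their part in the level of Per1 was not tested.

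The activators Arntl and Npas2 were low and, for Npas2, widely spread. Arntl had 10.4, 11, 8.85, 17.6 and 12.9 CPM in vehicle mice and 9.56, 11.3, 10.3, 16.2 and 12.5 CPM in 125 mg/kg mice. It had 7.89, 14.6, 14.6 and 14.2 CPM in 250 mg/kg mice and 4.75, 15.1, 8.41 and 12.5 CPM in 500 mg/kg mice. All doses overlapped with vehicle, and its slope was -0.26 (SE 0.24, edgeR adjusted p = 0.682), which was -0.67 without G79, -0.12 without G87, -0.045 without G4 and -0.058 without both G4 and G9. Npas2, which stands in for CLOCK in the forebrain, had 3.21, 27.5, 17.1, 39.7 and 15.9 CPM in vehicle mice and 20.7, 42.5, 24.4, 25.4 and 18.7 CPM in 125 mg/kg mice. It had 11.8, 24.6, 26.9 and 28.5 CPM in 250 mg/kg mice and 4.11, 12.9, 22.5 and 14.0 CPM in 500 mg/kg mice. G9 and G4 held the lowest Npas2 levels, and the slope was -0.83 (SE 0.51, edgeR adjusted p = 0.50). It was -0.48 without G4 and -0.70 without both (edgeR adjusted p = 0.459). The log2 ratio of Dbp to Arntl within a mouse, which sets the opposite arms of the loop side by side, ran between 1.26 and 2.64 at 500 mg/kg and between 1.87 and 2.62 with vehicle, so the groups overlapped. The highest ratio of all was 3.12 in G49 and the lowest 1.0 in G66, both at 250 mg/kg.

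**Figure D2:**
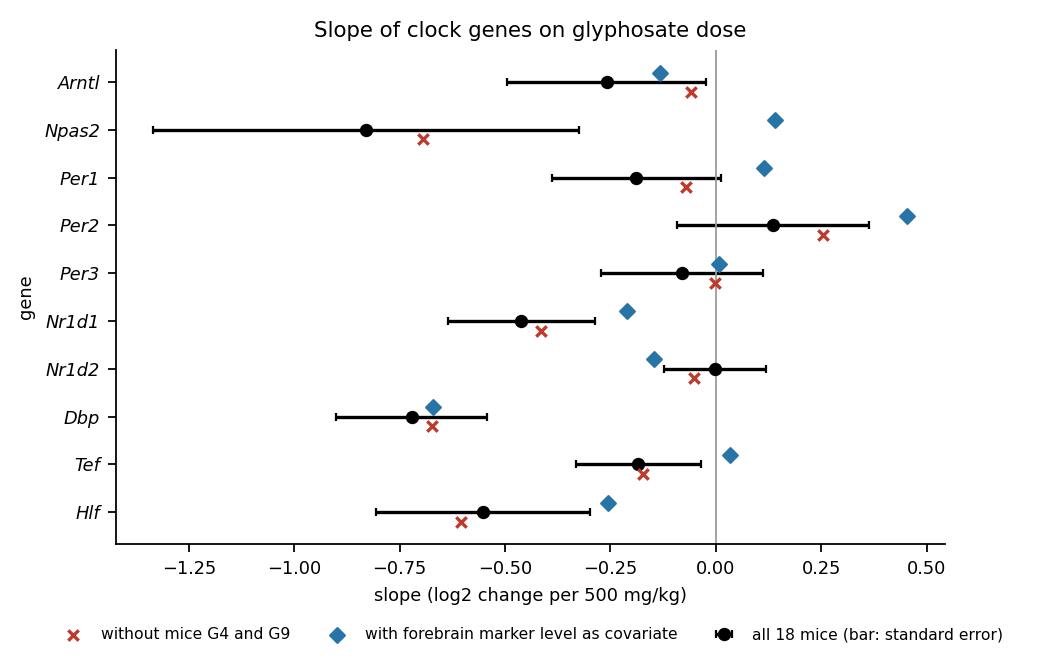
Slope of each clock gene on glyphosate dose (horizontal axis, log2 change per 500 mg/kg). Black points with bars are the fitted slopes with their standard errors over all 18 mice, red crosses the slopes without G4 and G9, and blue diamonds the slopes with the forebrain marker level as a covariate; Dbp stays between -0.72 and -0.67 while Npas2 runs between -0.83 and 0.14.

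The other comparisons gave no called member either. For any difference between doses 0 of 10 passed (0.0441% of all genes did), with 3 at an unadjusted p under 0.05 (Hlf, Dbp and Nr1d1), where 2372 of 15863 genes had the same. For 125 mg/kg against vehicle 0 of 10 passed (0% of all genes), with 1 at an unadjusted p under 0.05 (Hlf) against 11.2%, and for 250 mg/kg against vehicle 0 of 10 passed (0% of all genes), with 0 at an unadjusted p under 0.05 against 3.76%. For 500 mg/kg against vehicle 0 of 10 passed (0.0189% of all genes), with 2 at an unadjusted p under 0.05 (Dbp and Nr1d1) against 11.6%. These comparisons share the vehicle mice. DESeq2 called 0 of 10 at 125 and at 250 mg/kg, 1 at 500 mg/kg (Dbp) and 1 for any difference (Hlf). The share of all genes that DESeq2 called at each dose is not reported here, so its counts of members cannot be read against it.

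Males and females were compared across doses because the sexes are not balanced over the groups. By edgeR 0 of 10 passed (0.0441% of all genes did), and 3 had an unadjusted p under 0.05, all higher in males, against 7.99% of all genes and 4.41% in that direction; DESeq2 also called 0. Hlf had a median of 247 CPM in 10 males (238 to 421) and 190.3 CPM in 8 females (149.8 to 377), a difference of 0.40 on the log2 scale (SE 0.15, edgeR adjusted p = 0.622). Arntl had 13.6 CPM in males and 9.99 CPM in females as medians, a difference of 0.43 (SE 0.19, edgeR adjusted p = 0.622), and Per3 59.5 CPM in males and 50.2 CPM in females, a difference of 0.29 (SE 0.13, edgeR adjusted p = 0.622). The ranges of the sexes overlapped for all 3. The females G4, G9, G49 and G79 had the lowest forebrain marker sums of all mice (370.5, 455, 1660 and 1725 CPM). They also had the lowest Hlf (159.6, 154, 157 and 149.8 CPM), and G4 the lowest Arntl (4.75 CPM) and Per3 (38.2 CPM). The part of the marker level in these differences between the sexes was not tested. The test of a difference in slope between the sexes was passed by no member in edgeR (0 of 10, 0% of all genes, and 0 at an unadjusted p under 0.05 against 1.65%), and DESeq2 called 0.

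The clock genes varied between mice about as much as other genes. The biological coefficient of variation had a median of 20.6% over the 10 and of 20.3% over all genes tested, and the ratio of the highest to the lowest mouse a median of 2.42 against 2.40. Npas2 was the most variable, at 49.1% and a ratio of 13.2, and Nr1d2 the least, at 15.5% and a ratio of 1.53.

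Which genes rose and fell together between mice of the same dose was then read from levels centred on dose group means, over 45 pairs of genes and 18 mice. Of these, 18 pairs were correlated (permutation test within dose groups, 100000 permutations, Benjamini-Hochberg adjusted p under 0.05 over the 45 pairs), 15 positively and 3 negatively, with 23 at an unadjusted p under 0.05. By Spearman's rho 17 of the 18 also passed. The strongest negative pair was Nr1d1 with Nr1d2 (r = -0.89, rho = -0.87, adjusted permutation p = 0.00292 and 0.00607), the pair that is normally in step. It was -0.71 in males and -0.95 in females, -0.82 without the 2 mice farthest from the median and -0.83 without G4 and G9. The strongest positive pair was Per1 with Per2 (r = 0.89, rho = 0.80, adjusted permutation p = 0.00292 and 0.00745), at 0.63 in males, 0.98 in females, 0.82 without the 2 farthest mice and 0.79 without G4 and G9. Nr1d2 ran against Per1 (r = -0.73, rho = -0.67, adjusted permutation p = 0.0137 and 0.0244) and against Npas2 (r = -0.68, rho = -0.63, adjusted permutation p = 0.0215 and 0.0355), while Nr1d1 ran with both (r = 0.78 with Per1 and 0.72 with Npas2). Without G4 and G9 none of these passed. There r of Nr1d2 was -0.58 with Per1 (adjusted permutation p = 0.16) and -0.51 with Npas2 (0.245). That of Nr1d1 was 0.64 with Per1 (0.105) and 0.53 with Npas2 (0.16). In males r of Nr1d2 was -0.55 with Per1 and -0.097 with Npas2.

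Arntl, the arm opposite to Dbp and Nr1d1 in a running clock, passed the test with neither (r = -0.13 with Dbp, adjusted permutation p = 0.719, and r = 0.26 with Nr1d1, adjusted permutation p = 0.511). It was correlated positively with the Per genes: r = 0.75 with Per2 (rho = 0.78, adjusted permutation p = 0.0124 and 0.00745), 0.71 with Per3 (rho = 0.69, adjusted permutation p = 0.0124 and 0.0217) and 0.70 with Per1 (rho = 0.64, adjusted permutation p = 0.0330 and 0.0392). Without the 2 mice farthest from the median the pairs with Per2 and Per3 stood at 0.79 and 0.73, and that with Per1 at 0.55, and without G4 and G9 they stood at 0.61, 0.62 and 0.48. On centring on dose and sex, the pair with Per2 still passed (r = 0.72, adjusted permutation p = 0.0185), while those with Per3 (r = 0.59, adjusted permutation p = 0.0586) and Per1 (r = 0.64, adjusted permutation p = 0.0829) did not. The pair with Per1 was 0.25 in males and 0.86 in females. Over all mice Dbp was in no correlated pair, with r between -0.17 (Hlf) and 0.36 (Tef). Within the sexes its values lay apart: with Per1 r was -0.16 in 10 males and 0.94 in 8 females, with Nr1d1 0.02 in males and 0.91 in females, and with Nr1d2 -0.06 in males and -0.90 in females. The 8 females include G4 and G9, and by dose they number 3 (vehicle), 2 (125 mg/kg), 1 (250 mg/kg) and 2 (500 mg/kg). Centring on dose therefore leaves few free values in females. Over all mice without G4 and G9, r of Dbp was -0.31 with Per1, -0.014 with Nr1d1 and 0.12 with Nr1d2. The difference between the sexes was not tested. Without G4 and G9, 3 of the 45 pairs were left: Nr1d1 with Nr1d2 at -0.83, Per1 with Per2 at 0.79 and Per2 with Per3 at 0.67.

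The genes most like Dbp over the 18 mice, by Pearson's r of levels centred on dose, were Epor (0.85), Nop9 (0.82), Ctu1 (0.80), Zbtb12 (0.79) and Washc1 (0.79), and none of them was a clock gene. Those most like Arntl were Srgap2 (0.90), Ankle2 (0.89), 2 identifiers without a symbol (0.89 and 0.88) and Rufy2 (0.87). These are descriptions of the top 5 of all genes tested, with no test.

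**Figure D3:**
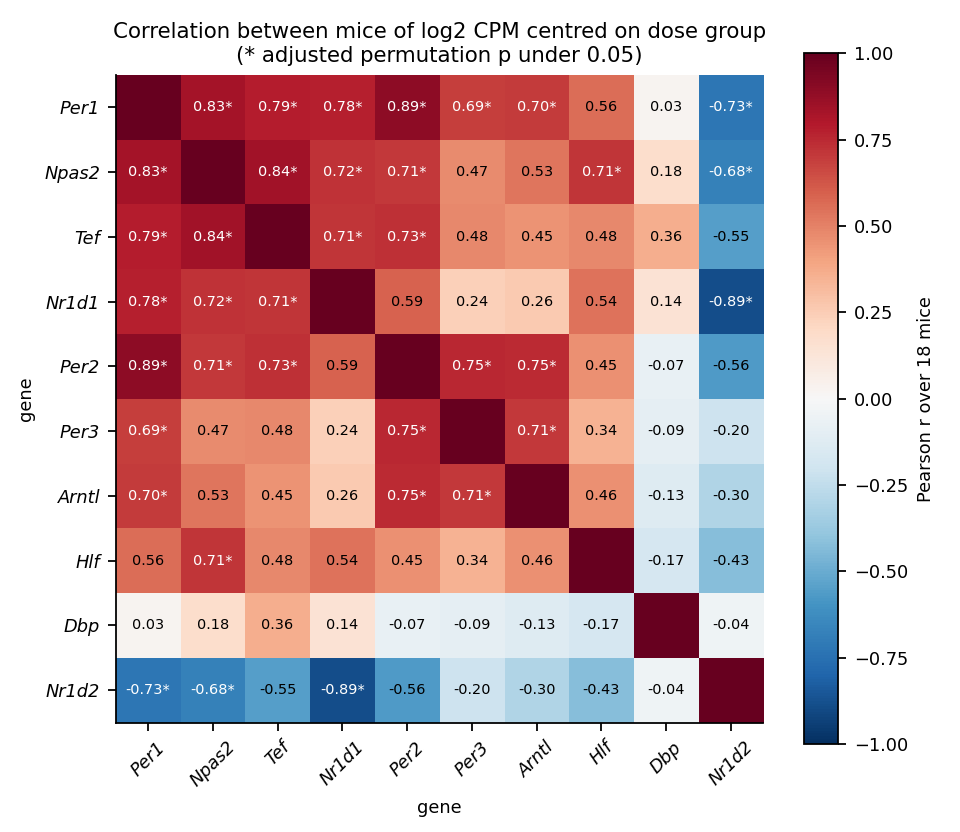
Pearson correlation between mice for each pair of clock genes (both axes), from log2 CPM centred on dose group means over 18 mice, with an asterisk where the adjusted permutation p is under 0.05. Per1, Npas2, Tef, Nr1d1 and Per2 form a red block with r up to 0.89, Nr1d2 is blue against Nr1d1 at -0.89, and Dbp is pale throughout.

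The same genes followed the forebrain excitatory marker level of the hemisphere, a relation looked at after the values were seen. Across 18 mice centred on dose, Per1 had r = 0.92 (rho = 0.79, adjusted permutation p = 0.0001 and 0.0016 over 10 genes), with an unadjusted p of 1e-05, the smallest that 100000 permutations can give. Npas2 had r = 0.90 (rho = 0.73, adjusted permutation p = 0.00135 and 0.00467), Per2 0.85 (rho = 0.65, 0.00105 and 0.0111), Tef 0.83 (rho = 0.77, 0.00168 and 0.00467), Nr1d1 0.79 (rho = 0.82, 0.00135 and 0.0009) and Hlf 0.64 (rho = 0.72, 0.0163 and 0.00467). Nr1d2 went the other way (r = -0.73, rho = -0.71, adjusted permutation p = 0.00652 and 0.00467). Without the 2 mice farthest from the median of the marker level, r was 0.88 for Per1, 0.72 for Npas2, 0.81 for Per2, 0.66 for Tef, 0.72 for Nr1d1, 0.49 for Hlf and -0.65 for Nr1d2, and without G4 and G9 it was 0.88 for Per1, 0.62 for Npas2 and -0.65 for Nr1d2. Arntl (r = 0.56, rho = 0.45, adjusted permutation p = 0.0577 and 0.100) and Per3 (r = 0.58, rho = 0.56, adjusted permutation p = 0.0636 and 0.0422) did not pass by r. Dbp gave no such relation (r = 0.03, rho = 0.14, adjusted permutation p = 0.883 and 0.590), and r was -0.41 without G4 and G9.

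**Figure D4:**
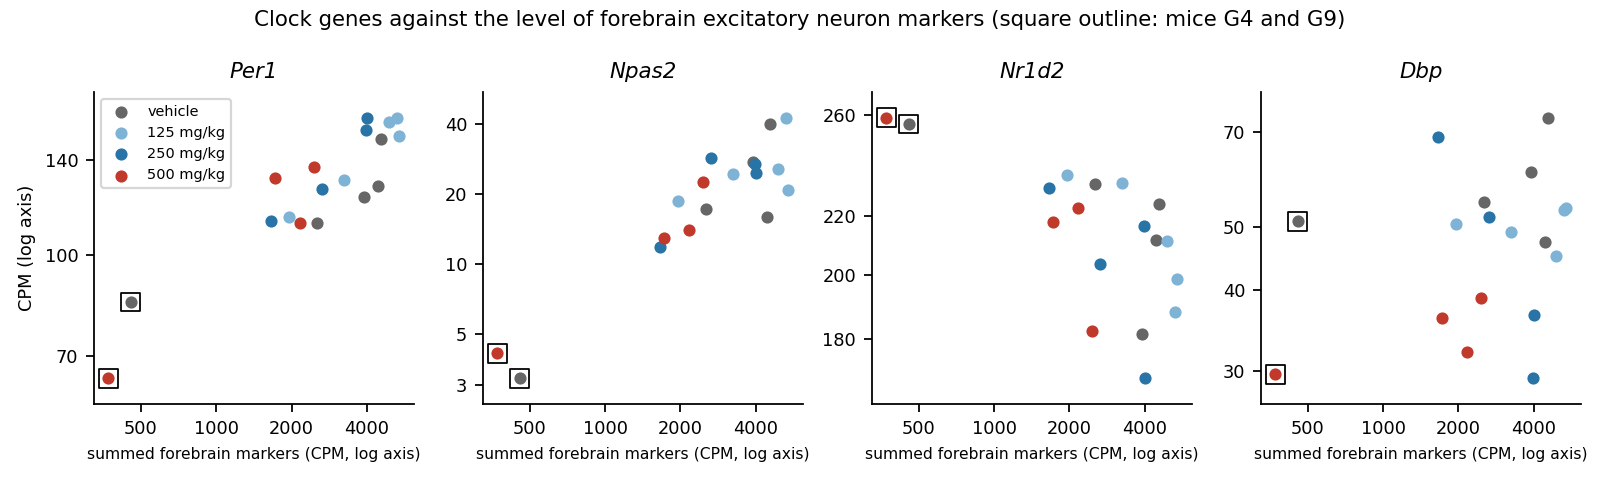
Level of 4 clock genes (vertical axes, CPM, log scale) against the summed level of 8 forebrain excitatory neuron markers in the same mouse (horizontal axes, CPM, log scale), coloured by dose, with square outlines for G4 and G9. Per1 and Npas2 climb with the markers (r = 0.92 and 0.90 after centring on dose), Nr1d2 descends (r = -0.73) and Dbp shows no relation (r = 0.03).

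With the marker level as a covariate, an alternative chosen after seeing the data, the dose slope of Dbp was -0.67 (edgeR adjusted p = 0.217), that of Nr1d1 -0.21 (edgeR adjusted p = 0.559), that of Hlf -0.26 (edgeR adjusted p = 0.736) and that of Npas2 0.14 (edgeR adjusted p = 0.897). The slope of Per2 was 0.45 under it (edgeR adjusted p = 0.324, unadjusted p = 0.00941). The slopes of Nr1d1 and Hlf were thus nearer to 0 than without the covariate, and that of Dbp was nearly as large. Centring the pairs on the marker level as well as on dose left 1 of 45, Nr1d1 with Nr1d2 at r = -0.74 (adjusted permutation p = 0.0144).

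Further genes of the clock, from lists set with earlier results in view, likewise gave 0 called. Of the other activators, Clock, the usual partner of BMAL1, had a slope of -0.08 (edgeR adjusted p = 0.769) and Arntl2, a BMAL1 relative near its detection limit, 0.64 (edgeR adjusted p = 0.559). Of 5 other repressors 4 had negative slopes, the smallest p being that of Ciart, a repressor of CLOCK and BMAL1, at -0.38 (unadjusted p = 0.0265, edgeR adjusted p = 0.311), with Bhlhe40 at -0.46 (edgeR adjusted p = 0.492) and Cry2 at -0.24 (edgeR adjusted p = 0.513). Of the 4 ROR and Nfil3 genes, which compete at RRE or D-box elements, 3 had negative slopes, with Rorb at -0.32 (edgeR adjusted p = 0.635) and Nfil3 at -0.27 (edgeR adjusted p = 0.663). Of 7 genes of clock protein turnover 4 had negative slopes and 0 passed. Of 3 other output genes of the loop 2 had negative slopes and 0 passed, with a median slope of -0.04. The smallest p among them was that of Usp2, a rhythmic deubiquitinase, with a slope of -0.49 (unadjusted p = 0.00618, edgeR adjusted p = 0.20). Usp2 averaged 75.7 ± 19.3 CPM at 500 mg/kg (SD, n = 4) and 104 ± 16.8 CPM with vehicle (SD, n = 5). Of 9 markers of the suprachiasmatic nucleus, the hypothalamic pacemaker, 6 could be tested, 5 had negative slopes and 0 passed. Vip had a slope of -0.91 (edgeR adjusted p = 0.544). It ran between 2.22 and 31.0 CPM with vehicle and between 1.93 and 12.1 CPM at 500 mg/kg. Avp, which other hypothalamic neurons also make, had a slope of 3.31 (edgeR adjusted p = 0.311). It was near its detection limit with vehicle (0 to 0.924 CPM) and ran between 0.127 and 11.4 CPM at 500 mg/kg. RNA of a hemisphere does not separate this nucleus from other sources of either transcript.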

How the data were processed

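RNA from brain hemispheres of 18 mice was made into stranded, ribosome-depleted libraries and sequenced as paired 100 base reads. Per the labels, the authors aligned reads with STAR 2.7.5b to GRCm38 and counted them per Entrez gene with featureCounts, and the deposited table holds raw counts. The strand setting of the counting is not given in the sources used here. Counts were scaled by TMM in edgeR 4.0.16 (R 4.3.3), filtered at a minimum count of 10 and tested by the quasi-likelihood test with dose and sex in the model, dose being per 500 mg/kg, at an adjusted p of 0.05 over the 15863 genes tested. Dose as a factor, sex and dose by sex were fitted likewise, and DESeq2 1.42.0, limma 3.58.1 voom and sva 3.50.0 gave alternatives. The fit was tested on simulated data. log2 CPM used a prior count of 2. Correlations used levels centred on dose and 100000 permutations within dose groups. Exon lengths, coordinates and overlaps came from GENCODE M21, and promoters from RefSeq (GRCm38.p6). Of 27179 identifiers, 25275 had a symbol. Libraries of a group differed far beyond sampling noise (chi-square per degree of freedom of at least 9.67 over 32 pairs), so none was a repeat of another. The members and lists were chosen with earlier results of these data known. All members were named, with called genes of the other lists, up to 3 with the smallest p from each other clock list, the 5 genes most like Dbp and Arntl, and overlapping genes; some genes these rules pick are not reported here.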

Additional observations from a re-analysis of the deposited data

Results flagged for a closer look

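Each gene was looked at in each dose group for a mouse set apart from the rest of its group by Dixon's ratio, the gap to the nearest other mouse over the whole range of the group. Of 40 such sets, 3 were past the 95% critical value, and chance alone gives about 1 in 20. Arntl in mouse G49, the only female at 250 mg/kg, was the lowest of its group, at 7.89 CPM against 14.2 to 14.6 CPM in the 3 males (ratio 0.937). Per2 was the lowest in the same mouse, at 33.0 CPM against 49.5 to 52.8 CPM in the males (ratio 0.833), and its library was the shallowest of all, with 3948096 counts. Npas2 in mouse G29, a female at 125 mg/kg, was the highest of its group, at 42.5 CPM against 18.7 to 25.4 CPM in the other 4 mice (ratio 0.715).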

How the results depend on the processing

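By edgeR 0 of 10 clock genes passed in every comparison with DESeq2 size factors, with no filter on low counts and without G4 and G9. The other settings were run for the dose slope alone (a stricter filter, limma-voom, no sex covariate, dose as a rank, a surrogate variable, fewer groups or a single sex), and 0 of 10 passed there, as in the 500 mg/kg and vehicle mice fitted by themselves. The count of members called was 1 with DESeq2 for the dose slope (Dbp), for any dose difference (Hlf) and for 500 mg/kg against vehicle (Dbp), and ran between 0 and 1 for the dose slope on leaving out 1 mouse (1 without G49). The count of correlated pairs was 3 without G4 and G9 and 1 on centring on the forebrain marker level as well. The slope of Dbp ran between -0.80 and -0.60 on leaving out 1 mouse, with adjusted p between 0.0405 and 0.424, and was -0.67 without G4 and G9 (adjusted p = 0.244). Signs turned for slopes that passed in no fit: without the 500 mg/kg group, Tef 0.16, Per1 0.39, Per3 0.11 and Npas2 0.23; without the vehicle group, Nr1d2 0.062, Per2 -0.0061 and Per3 0.080; in females alone, Nr1d2 0.12 and Per3 0.058; with a surrogate variable, Tef 0.0098, Per1 0.052, Per3 0.0062 and Npas2 0.040; with the forebrain marker level as a covariate, Tef 0.033, Per1 0.11, Per3 0.0079 and Npas2 0.14. The cause was not tested. On leaving out 1 mouse, slopes ran between -0.094 and 0.055 for Nr1d2, -0.67 and -0.045 for Arntl, -1.04 and -0.48 for Npas2, -0.27 and -0.089 for Tef, -0.32 and 0.021 for Per1, -0.066 and 0.34 for Per2 and -0.25 and 0.051 for Per3. With the number at the start of the mouse tag as a replicate block, the only number that dose groups share, slopes were 0.048 for Tef, 0.064 for Nr1d2, 0.041 for Per3 and -0.038 for Dbp (adjusted p = 0.9999), and 0 of 10 passed. Groups that share a tag number hold opposite sexes there, so the block leaves little within-number contrast of dose, and the numbers were not taken as pairs. Arntl and Npas2, with as few as 32 and 29 counts in a library, were measured least precisely.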

Other observations

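The RNA-binding protein genes Rbm3 and Cirbp, which cooling induces and which in mice vary with the daily rhythm of body temperature, were singled out after their values were seen. Rbm3 averaged 68.6 ± 11.1 CPM at 500 mg/kg (SD, n = 4) and 101 ± 14.9 CPM with vehicle (SD, n = 5), with a slope of -0.50 on the log2 scale per 500 mg/kg (SE 0.16, unadjusted p = 0.00540, edgeR adjusted p = 0.190). Cirbp averaged 48.2 ± 2.90 CPM at 500 mg/kg (SD, n = 4) and 60.7 ± 6.08 CPM with vehicle (SD, n = 5), with a slope of -0.32 (SE 0.12, unadjusted p = 0.0127, edgeR adjusted p = 0.247). Neither passed the adjusted threshold, and the other 3 genes of the temperature list had positive slopes. That list also holds heat shock genes, so these signs are not set against those of Rbm3 and Cirbp. Hsph1 averaged 121 ± 22.5 CPM at 500 mg/kg (SD, n = 4) and 99.1 ± 13.4 CPM with vehicle (SD, n = 5). Dnajb1 averaged 62.3 ± 6.57 CPM and 56.2 ± 8.55 CPM in the same groups.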
